A study of Mus musculus with 4 samples.

Results

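The C/D box small nucleolar RNAs were the 68 RNAs whose names begin with Snord and a number, of 13318 RNAs in the deposited contact table. They took part in 688 of its 56636 RNA pairs. Contacts were measured by RIC-seq: after formaldehyde fixation RNA is cut inside the cell, neighbouring fragments are ligated to each other, and the resulting chimeric reads are counted for each pair of RNAs. The 4 libraries were from mouse spermatogonial stem cells, the testis cells that renew themselves and feed sperm production. The 2 control libraries carried the genotype label WT. The other 2 libraries carried the word Differentiation in the same label field, with no allele named. The sources used here give no agent or duration of differentiation, no mouse strain or age, and no word on whether libraries came from separate cultures. The p-values below therefore measure the spread between these 4 libraries alone, and that spread may be technical.

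C/D box small nucleolar RNAs take their name from short conserved boxes, C near the 5′ end and D near the 3′ end, that bind a shared set of proteins including the methyltransferase fibrillarin. Most of them are cut out of the introns of other genes, base-pair with ribosomal RNA and direct the methylation of single riboses in it. A few (U3, U8, U13, U14 and U22) are instead known chiefly for steps that cut, fold or acetylate the ribosomal RNA precursor. In the germ line, as in other growing cells, this supplies ribosomes.

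The 68 RNAs had 223 partner RNAs in all, and each had from 1 to 75 partners with a median of 5. The 6 with 1 partner were Snord123, Snord71, Snord61, Snord111, Snord45b and Snord72. Coordinates were found for 64 of the 68 in RefSeq's GRCm38.p6 gene table, where their lengths ran from 45 to 221 bases. Of these, 61 lay inside another gene, 51 of them in a protein-coding gene and 10 in a long noncoding RNA gene alone. Snord13, Snord89 and Snord118 lay in no other gene, and Snord50a, Snord50b, Snord60 and Snord80 had no match. None of the 68 was listed in a pair with itself, although the table held 4836 such pairs, and 19 pairs joined different C/D box RNAs. The count was uneven: Snord50b, Snord14d and Snord100 held 27.4% of all C/D box counts, and the 12 RNAs of largest count held 65.7%. For Snord50b, 1594 and 630 counts were each listed under 2 partner names, so its place and these shares include repeated counts.

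RefSeq's microRNA table held 2 hairpins that bear on these contacts, and both are shown for the box letters they carry. Capitals mark the C box letters UGAUGA and the D box letters CUGA, searched on the printed strand alone. The first sequence is where Snord33 (chr7:45126864-45126945) and the hairpin Mir5121 overlap, at chr7:45126918-45126945 of GRCm38.p6, read on the minus strand of the hairpin. Its first 21 bases are the mature miR-5121. The second is the hairpin listed as Gm24148, with the synonym Mir3535, inside the nucleolin gene Ncl at chr1:86351981-86352127 on the minus strand.
Snord33 and Mir5121 overlap: agcuugUGAUGAgacaucucccacucau
Gm24148 hairpin: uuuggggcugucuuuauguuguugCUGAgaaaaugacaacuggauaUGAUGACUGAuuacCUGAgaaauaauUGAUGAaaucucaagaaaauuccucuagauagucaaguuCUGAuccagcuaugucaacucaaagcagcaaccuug
The Snord33 stretch holds UGAUGA at bases 7 to 12. The Gm24148 hairpin holds UGAUGA from bases 47 and 73, and CUGA from bases 25, 53, 61 and 112. Of 1005 mouse hairpins in the table, 2.69% held UGAUGA and 0.498% held UGAUGA with CUGA after it. Such matches are descriptions of the letters. They bear on the counting: Mir5121 shared 14 of the 17 partners of Snord33, and at those 14 it was listed with 505 counts against 694 for Snord33, or 72.8%.

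Control 1 and control 2 held 1209031 and 1400011 counts, and differentiation 1 and differentiation 2 held 793129 and 1155923. These are counts over pairs present in every library, not sequencing depth. Of the markers of undifferentiated spermatogonia, 5 of 10 were listed (Gfra1, Zbtb16, Etv5, Ret and Shisa6), with a summed contact level of 740.01 and 867 CPM (counts scaled to library size) in the controls against 229 and 208 CPM. Id4, Nanos2, Lhx1, Bcl6b and Eomes were not listed. All 7 markers of differentiating and meiotic germ cells were listed, at 129 and 125 against 417 and 453 CPM. Sertoli cell markers (5 of 6 listed, Amh not) stood at 846 and 977 against 552 and 507 CPM, and fibroblast and feeder markers (6 of 6) at 1364 and 1293 against 828 and 965 CPM. General germ cell markers (3 of 3) had 17.4 and 15.6 against 28.5 and 26.5 CPM. Leydig and peritubular markers (3 of 5) had 194 and 205 against 201 and 202 CPM. Immune markers (2 of 4) had 5.79 and 11.1 against 49.7 and 3.24 CPM, so the differentiation libraries differed there. All these values are sums, and 1 gene may carry a shift. The part of such cells in the results below was not tested. In bulk libraries, fewer cells of a type and less RNA per cell cannot be told apart.

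The question put to the data was how C/D box RNA contacts differ between the control and the differentiation libraries. Of all counts, C/D box pairs took 0.796% and 0.858% in the controls, against 0.694% and 0.721% after differentiation. The 95% Wilson intervals ran from 0.780% to 0.812% and from 0.843% to 0.874% in the controls, and from 0.676% to 0.713% and from 0.706% to 0.737% after differentiation. Both differentiation libraries were below both controls, with means of 0.708% ± 0.0188 against 0.827% ± 0.0440 (SD, n = 2). The exact two-sided permutation p was 0.333, the smallest that 2 against 2 allows.

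The contact total of an RNA is the sum of its pair counts. No separate measure of RNA amount was used, so altered contact and an altered amount of RNA cannot be told apart. Of the 68, 64 passed the filter on low counts, and Snord45b, Snord52, Snord72 and Snord111 did not. Of the 64, 11 fell at an adjusted p under 0.05 and 0 rose, by the quasi-likelihood test of edgeR with Benjamini-Hochberg adjustment over all 10993 RNAs tested. Across those RNAs 6.75% fell and 5.44% rose. At an unadjusted p under 0.05, 22 of the 64 were lower and 0 higher, and DESeq2 also called 0 higher. Of all 10993 RNAs tested, 2970 had an unadjusted p under 0.05 in either direction. The median log2 change, differentiation over control, was -0.37 over the 64 and -7.07e-04 over all RNAs tested. With pairs of an RNA with itself left out of every total, these medians were -0.20 and 0.021. The change lay below 0 in 46 of the 64, and in 39 both differentiation libraries were below both controls. Among all RNAs tested, 29.1% were lower without overlap. The number of calls depended on the libraries: leaving out control replicate 1 left 1 (Snord13) and leaving out control replicate 2 left 0, while without differentiation replicate 1 there were 18. The median change over the 64 was -0.43 without control replicate 1 and -0.41 without control replicate 2. Over all RNAs the calls in either direction went from 1340 to 294, 129 and 2103 in the same order. With column totals in place of TMM scaling, which moved the median of all RNAs to 0.16, 5 fell (Snord12, Snord13, Snord14c, Snord38a and Snord80). Without the pairs of Neat1 5 fell (Snord12, Snord13, Snord14c, Snord21 and Snord80), and without those of Gm42418 and Gm26917 5 of 47 tested fell.

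**Figure D1:**
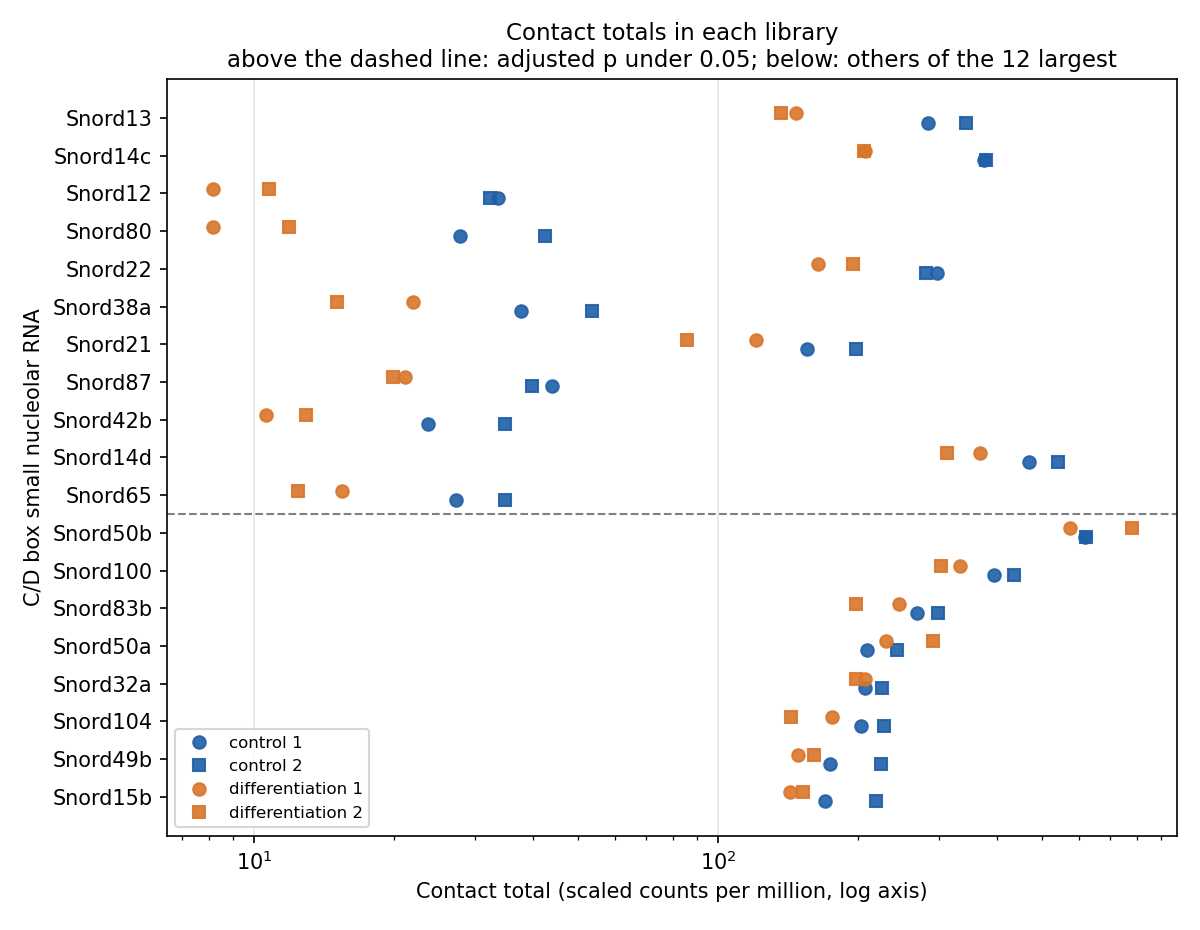
Contact totals (CPM, log axis) of the 11 C/D box RNAs that passed the test, above the dashed line, and of the others among the 12 with the largest summed count, below it, with 1 point per library. In each of the 11 both differentiation points lie left of both control points, whereas those of Snord50b (572 to 778 CPM) lie on both sides of the controls.

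Of the 7 RNAs known for processing of the precursor, 4 fell. Snord13 (U13, which takes part in the acetylation of 18S ribosomal RNA; chr8:31149861-31149958, in no other gene) had 283 and 342 CPM in the controls and then 148 and 137 CPM after differentiation. Both differentiation values were below both controls by more than the spread within either group (log2 change -1.14, SE 0.17, adjusted p = 0.00139). Snord14c, a U14 RNA needed to make 18S ribosomal RNA and encoded in an intron of the heat shock gene Hspa8 (chr9:40803583-40803669), had 375 and 378 CPM against 207 and 206 CPM. Its libraries nearly coincided within each group and the groups did not overlap (-0.86, SE 0.15, adjusted p = 0.00359). Snord14d, the U14 copy at chr9:40803995-40804081, went from 467 and 540.5 to 368 and 311 CPM (-0.57, SE 0.16, adjusted p = 0.0384).

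Snord22 (U22, needed to process the 18S precursor; chr19:8725866-8725991) lies in the noncoding host gene Snhg1. It fell from 297 and 280.1 to 164 and 195 CPM, again without overlap (-0.68, SE 0.16, adjusted p = 0.0198). Without the pairs of Neat1, Snord22 and Snord14d did not pass (-0.43, adjusted p = 0.133, and -0.49, adjusted p = 0.0745), while Snord13 and Snord14c did. The other U14 copies were lower in both differentiation libraries but did not pass the test. Snord14e, also in Hspa8, had 159 and 198 against 126 and 107 CPM (-0.62, adjusted p = 0.0520), and Snord14a, in the ribosomal protein gene Rps13, had 61.3 and 61.5 against 40.8 and 42.6 CPM (-0.55, adjusted p = 0.131). Snord118 (U8, needed for 5.8S and 28S ribosomal RNA) had 70.0 and 42.8 against 42.4 and 47.0 CPM, and there the groups overlapped. All 7 had a change below 0, with a median of -0.62. Among the other 57 tested, 7 fell and the median was -0.35. The difference between these medians was not tested. Of the 7 processing RNAs, 4 are U14 copies, 3 of them in Hspa8. RNAs of like sequence may share reads, so the 7 are not independent cases.

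Outside the processing group 7 RNAs fell, and all 7 are known as guides of ribose methylation. Those in noncoding hosts were Snord12 and Snord65. Snord12, in Zfas1, had 33.6 and 32.2 CPM in the controls against 8.15 and 10.8 CPM (-1.76, SE 0.35, adjusted p = 0.00682). Snord65, in 2410006H16Rik, had 27.2 and 34.8 against 15.5 and 12.4 CPM (-1.17, adjusted p = 0.0437). Each was lower in both differentiation libraries. Snord21 lies in Rpl5 and Snord42b in Rpl23a, both ribosomal protein genes. Snord21 had 156 and 198 against 121 and 85.8 CPM (-0.79, adjusted p = 0.0313), Snord38a had 37.6 and 53.4 against 22.02 and 15.1 CPM (-1.32, adjusted p = 0.0205), and Snord42b had 23.7 and 34.8 against 10.6 and 13.0 CPM (-1.30, adjusted p = 0.0371). In none of these 3 did the groups overlap. With the pairs of Gm42418 and Gm26917 left out, none of the 3 passed. Snord21 then had -0.27 (adjusted p = 0.629), Snord38a -1.49 (adjusted p = 0.0601) and Snord42b -1.44 (adjusted p = 0.0667). Snord80, without coordinates here, had 27.8 and 42.3 against 8.15 and 11.9 CPM (-1.77, SE 0.37, adjusted p = 0.0103). Snord87, which lies in both Snhg6 and Mcmdc2, had 44.0 and 39.8 against 21.2 and 19.97 CPM (-1.02, adjusted p = 0.0356). Of the 11 that fell, 6 lay in a protein-coding gene, Snord87 among them.

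By host class, of 48 tested RNAs in protein-coding hosts 6 fell, of 9 in noncoding hosts alone 3 fell, and of 19 in ribosomal protein genes 3 fell, with medians of -0.39, -0.44 and -0.40. Several RNAs of large count did not pass the test. Snord50b, the largest by listed count, had 619 and 622 CPM in the controls and 572 and 778 CPM in the differentiation libraries, and these overlapped (0.12, SE 0.17, adjusted p = 0.697). Snord50a had 209 and 243 against 229.9 and 290.4 CPM, with overlap (0.21, adjusted p = 0.489). The counts of both were each listed under 2 partners, so their CPM and the rank of Snord50b include repeated counts. Snord100, in Rps12, had 394 and 435 against 333 and 303 CPM, lower in both libraries but short of the threshold (-0.39, SE 0.15, adjusted p = 0.131). Snord83b, in Rpl3, had 268 and 298 against 245 and 199 CPM (-0.36, adjusted p = 0.199). Snord104, in the noncoding Gm36220, had 204 and 228 against 176 and 144 CPM (-0.44, adjusted p = 0.132). With the pairs of Gm26917 and Gm42418 left out, the changes of Snord83b and Snord104 turned to 0.0923 and 0.18. The control and differentiation libraries did not overlap for these 3 RNAs of Rps12, Rpl3 and Gm36220.

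Both differentiation libraries were above both controls for Snord16a, Snord17, Snord69, Snord88c and Snord99, none of which passed the test. Over all RNAs tested, 26.1% were higher without overlap. Snord16a, in Rpl4, had 59.0 and 55.4 CPM in the controls and 67.7 and 70.7 CPM after differentiation (0.28, SE 0.20, adjusted p = 0.421). Snord17, in Snx5, had 52.1 and 57.9 against 72.6 and 62.6 CPM (0.29, adjusted p = 0.420). Related families stood beside the C/D box RNAs. Of 36 H/ACA box and Cajal body RNAs, which guide pseudouridine formation or act on small nuclear RNAs, 29 were tested, 0 rose and 0 fell, 2 had an unadjusted p under 0.05, and the median was 0.043. Of 5 U3 RNAs 0 rose and 0 fell, 1 had an unadjusted p under 0.05, and the median was -0.12. Whether these families differ from the C/D box RNAs was not tested.

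The partners held a few RNAs in common. Gm26917, a noncoding RNA without an entry in the gene table, was a partner of 63 of the 68 and took 26.4% of their counts. Gm42418, listed there as a synonym of the 18S ribosomal RNA-related pseudogene Rn18s-rs5 (chr17:39846354-39848202), was a partner of 50 and took 9.56%. Neat1, the noncoding RNA around which paraspeckles form, was a partner of 22, and Malat1, a noncoding RNA of nuclear speckles, of 24. Gm23935 was a partner of 28, Rmrp, the RNA of the ribonuclease MRP that cuts the ribosomal RNA precursor, of 20, and Tex14, a gene for the bridges between germ cells, of 21. Pairs between different C/D box RNAs held 1.55% ± 0.118 of the counts in the controls and 1.36% ± 0.107 after differentiation (SD, n = 2).

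Gm26917 was the largest partner of 52 of the 68 RNAs. Among the 46 with at least 100 counts, 43 had more counts with Gm26917 than with Gm42418, and for Snord50a and Snord50b neither was listed. Snord13 was the exception, with 594 counts (37.1%) with Gm42418 and 242 (15.1%) with Gm26917. Snord104 had 28.5% with Gm42418 and 43.4% with Gm26917, and Snord49a 29.8% and 32.7%. For Snord21 the same shares were 5.47% and 58.3%. Neat1 was the largest partner of Snord38a (32.7%), Snord42a (30.9%) and Snord65 (29.1%). Malat1 was the largest partner of Snord12 (47.4%), Snord37 (37.6%) and Snord42b, and Rmrp that of Snord47 (25.7%).

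**Figure D2:**
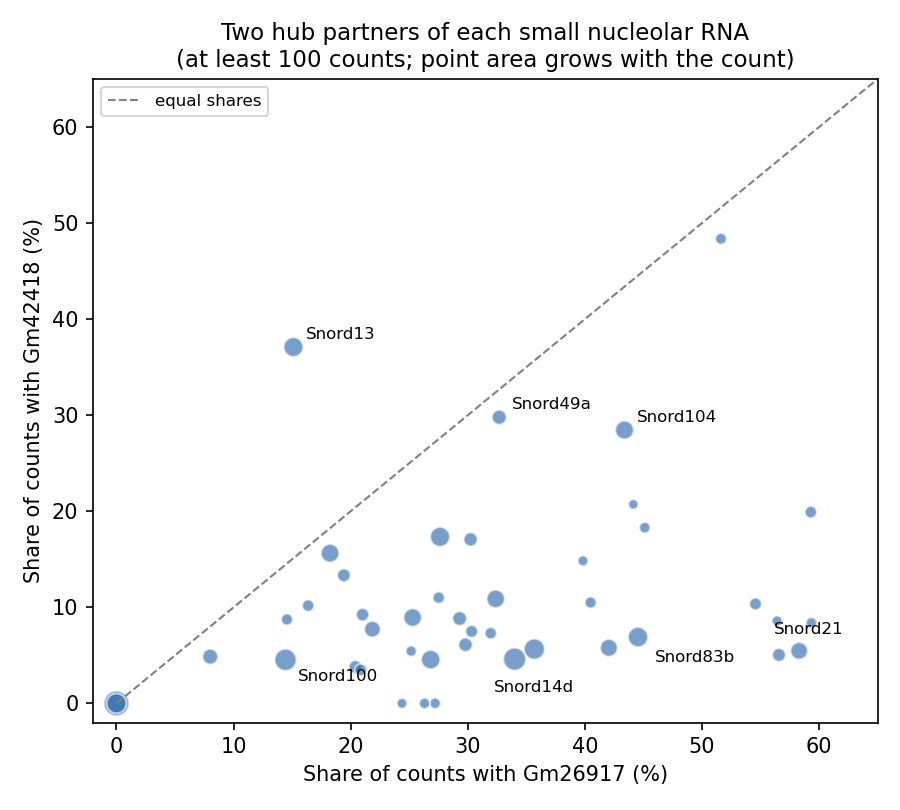
Share of each RNA's counts with Gm26917 (horizontal axis, %) and with Gm42418 (vertical axis, %), for the 46 C/D box RNAs with at least 100 counts over the 4 libraries. Snord13, at 15.1% and 37.1%, is the point above the dashed line of equal shares, and Snord50a and Snord50b lie at 0 on both axes.

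Snord50a and Snord50b stood apart in their partners. Each was listed with the same 4: 9330159M07Rik (chr9:88841798-88858870), 9430037G07Rik (chr9:88595325-88599243), Gm26135 and Gm23017. For Snord50b with 9330159M07Rik there were 401, 432, 247 and 514 counts in control 1, control 2, differentiation 1 and differentiation 2, and its pair with Gm26135 had the same 4 counts. The pairs with 9430037G07Rik and with Gm23017 likewise shared 134, 185, 104 and 207 counts. These values cannot be read as separate contacts. Of 344 C/D box pairs with at least 20 counts, 46 shared all 4 counts with another pair of the same RNA, in 23 sets. In 14 sets the partners overlap in the gene table, in 4 a partner had no entry, and in 5 they lie apart.

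The makeup of the partners also differed between the groups. Neat1 took 5.81% and 5.99% of the C/D box counts in the controls but 0.890% and 0.972% after differentiation. Malat1 took 4.52% and 4.92% against 2.81% and 2.35%, and Gm26917 27.9% and 30.8% against 23.8% and 21.7%. Both controls were higher for these 3 partners. The order was turned for Gm23935, with 3.54% and 3.66% against 6.03% and 5.16%, and for other small noncoding RNAs (Rmrp, U3, 7SL, 7SK and others), with 7.19% and 6.39% against 9.70% and 8.41%. Gm42418 took 9.67% and 9.89% against 8.93% and 9.98%, with overlap. The exact permutation p was 0.333, the smallest possible, for the first 5 and 1.0 for Gm42418. After adjustment over the 7 partner classes of the composition, which hold Gm26917, Gm42418 and the other small noncoding RNAs, these became 0.389 and 1.0.

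**Figure D3:**
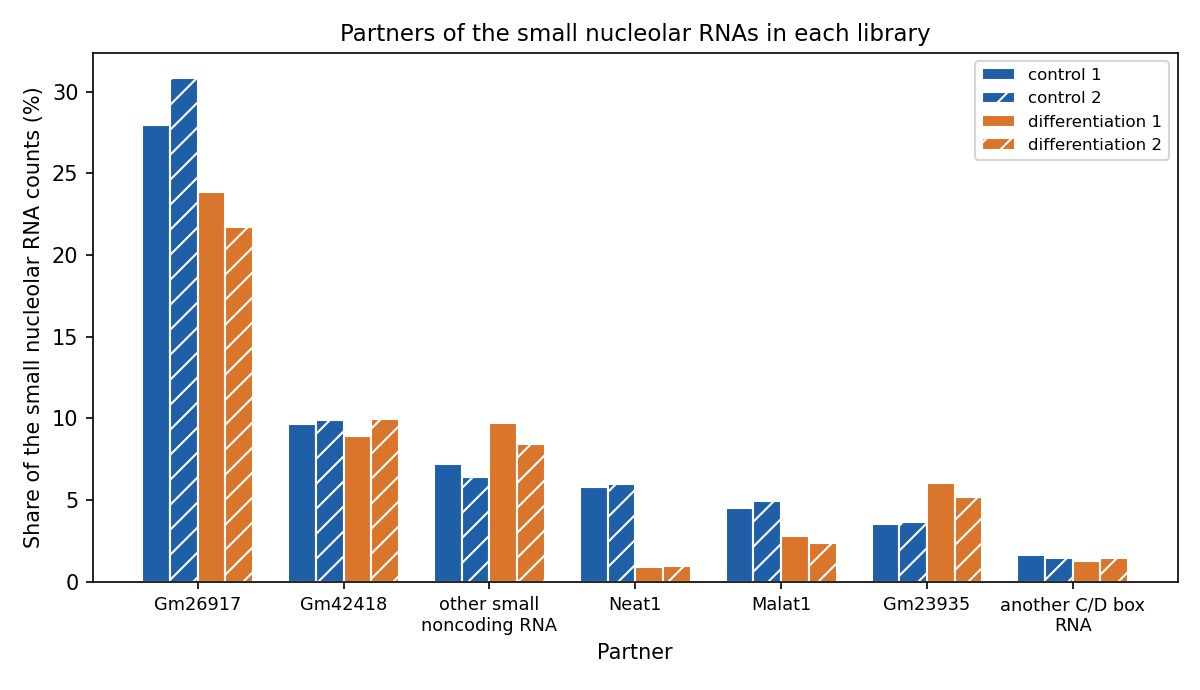
Share of the C/D box RNA counts (%) taken by 7 partners or partner classes in each of the 4 libraries. The Neat1 bars drop from 5.81% and 5.99% in the controls to 0.890% and 0.972% after differentiation, and the Gm42418 bars of the groups overlap.

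Of the 688 pairs, 367 passed the filter on low counts. Of these 24 fell and 0 rose at an adjusted p under 0.05 by the same test over all 31688 pairs. Over the 27249 tested pairs that join different RNAs, 2.25% fell and 1.3% rose. At an unadjusted p under 0.05, 44 of the 367 were lower and 24 higher, and DESeq2 called 0 higher. Of all 27249 tested pairs between different RNAs, 4818 had an unadjusted p under 0.05 in either direction. The median change was 0.0816 over the 367 and -0.0536 over all pairs between different RNAs. Pairs and contact totals were scaled separately, with TMM factors that ran opposite ways, so their changes are not on the same scale. Leaving out control replicate 2 gave 14 falls. Without either differentiation library 6 pairs rose.

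The falls gathered at Neat1, with 14 of the 24, and Malat1, with 3. All 18 tested pairs with Neat1 had a change below 0, with a median of -2.83. Of the 783 tested pairs of Neat1 with other RNAs, 763 were below 0 and 32.4% fell, with a median of -1.97. The Neat1 contact total itself fell (-2.34, adjusted p = 3.07e-05). Whether the C/D box pairs fell further than the other Neat1 pairs was not tested. The pair of Neat1 with Snord22 had 107 and 73 counts in the controls against 1 and 9 counts (-3.64, SE 0.53, adjusted p = 6.11e-04). That with Snord100 had 57 and 67 against 3 and 6 counts (-3.20, SE 0.49, adjusted p = 8.06e-04), and that with Snord14d 41 and 69 against 1 and 6 counts (-3.39, SE 0.57, adjusted p = 0.00185). In all 3 pairs each control held more than each differentiation library, although total counts differed between libraries by less than a factor of 2.

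Other Neat1 pairs that fell rested on few counts after differentiation. That with Snord38a had 71 counts over the controls and 3 over the differentiation libraries, a ratio of 16.03 relative to TMM-scaled library sizes, with a 95% interval from 5.27 to 79.6. That with Snord33 had 51 and 2 counts, a ratio of 17.3 with an interval from 4.54 to 146. Those intervals cover counting error only. Ratios on the same scaling were 9.71 (3.11 to 48.9) with Snord65 and 10.2 (2.58 to 87.7) with Snord42b. The rest were the pairs of Neat1 with Snord14c, Snord35a, Snord37, Snord42a, Snord49b, Snord55 and Snord83b, with changes from -3.08 to -2.08. The 4 tested Neat1 pairs that did not pass were those of Snord2, Snord12, Snord14a and Snord35b.

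All 19 tested pairs with Malat1 were below 0, with a median of -1.23, and 3 fell. Among 1468 tested pairs of Malat1 with other RNAs, 1248 were below 0 and 5.93% fell, with a median of -0.86. The pair of Malat1 with Snord37, a C/D box RNA in the translation factor gene Eef2, had 61 and 49 counts in the controls against 10 and 9 counts (-1.95, SE 0.46, adjusted p = 0.0176). That with Snord49a had 23 and 26 against 2 and 1 counts, a ratio on that scaling of 11.1 (95% interval 3.57 to 55.5), and that with Snord34 had 12 and 23 against 2 and 1 counts, a ratio of 7.90 (2.49 to 40.2). Each control was above each differentiation library in all 3. Malat1 with the U14 RNA Snord14d, its C/D box pair of largest count, had 62 and 95 against 35 and 48 counts (-0.34, SE 0.32, adjusted p = 0.618).

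**Figure D4:**
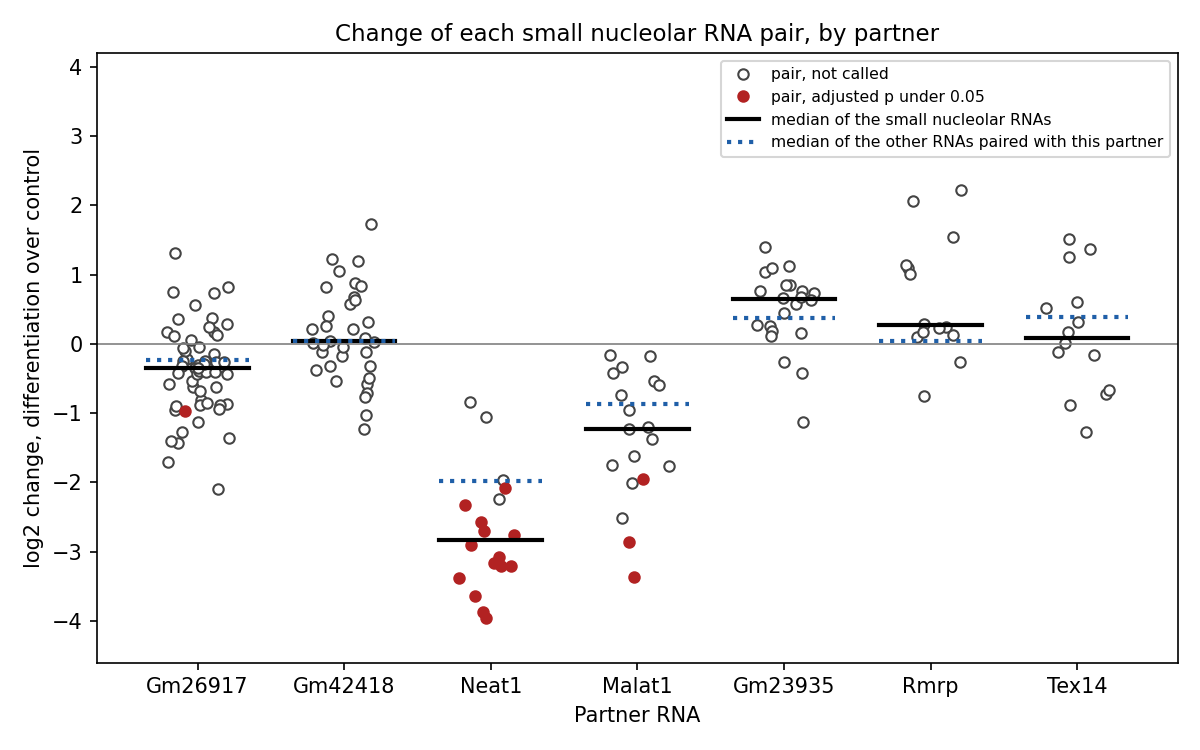
log2 change (differentiation over control) of each tested C/D box pair with 7 partner RNAs, where filled points passed the test, solid bars are the medians of the C/D box pairs and dotted bars those of the same partner's pairs with other RNAs. The Neat1 points lie below 0 around a median of -2.83, and those of Gm23935 lie mostly above 0 around 0.65.

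Few pairs with the other large partners passed the test. Of 5531 tested pairs of Gm26917 with other RNAs, 3439 were below 0 and 1.9% fell, with a median of -0.23. Of its 56 tested pairs with C/D box RNAs, 42 were below 0 and 1 (1.79%) fell, with a median of -0.35. The pair that fell was with Snord14c, at 228 and 310 against 69 and 119 counts (-0.96, SE 0.24, adjusted p = 0.0262). The Gm26917 contact total fell as well (-0.50, adjusted p = 0.0296). Of 34 tested pairs with Gm42418 0 rose and 0 fell, 3 had an unadjusted p under 0.05, and the median was 0.036 against 0.046. Of 6227 tested Gm42418 pairs with other RNAs, 831 had an unadjusted p under 0.05. With Snord13, Gm42418 had 167 and 243 against 76 and 108 counts (-0.58, SE 0.25, adjusted p = 0.194). Of 22 tested pairs with Gm23935 19 were above 0, beside 632 of its 959 tested pairs with other RNAs. Of the 22, 0 passed, with a median of 0.65 against 0.37. The largest, with Snord83b, had 83.4 and 91.1 CPM in the controls and 173 and 109 CPM after differentiation (0.68, SE 0.28, adjusted p = 0.164). Of 14 tested pairs with Rmrp 12 were above 0, beside 163 of its 317 tested pairs with other RNAs. Of the 14, 0 passed, with a median of 0.27 against 0.038. Over all tested pairs that join different RNAs, those of Neat1 and Malat1 included, 2.25% fell. Without the Neat1 and Malat1 pairs, 7 of 330 C/D box pairs (2.12%) fell and the median was 0.17 on the scaling of pairs.

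Those 7 came to 5 distinct sets of counts. Snord13 with Ncl, the gene of the nucleolar protein nucleolin, had 61 and 66 counts in the controls and 13 and 5 counts after differentiation, both far below the controls (-2.18, SE 0.50, adjusted p = 0.0154). Of its 145 counts, 143 (98.6%) were also listed for the Gm24148 hairpin printed above, whose pair had 59, 66, 13 and 5 counts. The pair of Snord13 with the name Mir3535 repeated those of Gm24148 exactly. The Ncl contact total had a change of -0.0053 (adjusted p = 0.988). Without differentiation replicate 2 the pair no longer passed (-1.41, adjusted p = 0.0887).

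Snord100 with Hspa8 had 73 and 83 counts in the controls and 10 and 26 counts after differentiation (-1.58, SE 0.38, adjusted p = 0.0203). Of those 192 counts, 190 (99.0%) were also listed for Snord100 with the U14 RNAs Snord14c, Snord14d and Snord14e. The pair of Snord100 with Snord14c fell from 27 and 35 to 2 and 6 counts (-2.38, SE 0.58, adjusted p = 0.0216), and the same 4 counts were listed for Rps12, the host of Snord100, with Snord14c. Snord100 with Snord14e had 21 and 17 against 1 and 4 counts (-2.35, adjusted p = 0.0632), and with Snord14d 25 and 31 against 7 and 14 counts (-0.86, adjusted p = 0.330). The fall thus passed the test for 1 of the 3 U14 copies in Hspa8, and whether the copies differ in their change was not tested. Snord83b with Snord14c had 3.37 and 2.15 CPM in the controls and higher values, 17.1 and 10.54 CPM, after differentiation, but did not pass (2.26, SE 0.69, adjusted p = 0.0654). Whether Snord100 and Snord83b differ in their change with Snord14c was not tested.

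Reads of a C/D box RNA were also counted for the gene that holds it. For 641 of 642 pairs of C/D box RNAs with a listed host, the host was listed with the same partner. In all 641 the host count was at least as large in every library, and in 61 the counts were identical. Over 44 hosts, the nested RNAs held from 1.12% to 95.6% of the host's counts with other RNAs, with a median of 31.4%. They held at least 50% in 12 hosts and under 10% in 11. Host values therefore do not stand apart from those above.

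The 3 hosts with most C/D box RNAs were Rpl13a, Hspa8 and 2410006H16Rik. In Rpl13a, a large ribosomal subunit protein gene, Snord32a, Snord33, Snord34 and Snord35a held 24.1% and 25.2% of the host counts in the controls and 17.8% and 15.4% after differentiation. Both shares were lower after differentiation, while the Rpl13a contact total had a change of 0.33 (adjusted p = 0.172). In Hspa8 the U14 RNAs held 56.3% and 58.8% against 53.7% and 52.0%, and the Hspa8 total fell (-0.55, adjusted p = 0.0296). In 2410006H16Rik, Snord49a, Snord49b and Snord65 held 66.4% and 74.7% against 81.7% and 72.1%, which overlapped. Rpl5, of whose counts Snord21 held 89.5%, had a change of -0.80 (adjusted p = 0.0236), beside -0.79 for Snord21. Snhg1, of whose counts Snord22 held 41.2%, had a change of -0.66 (adjusted p = 0.0129), beside -0.68 for Snord22.

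**Figure D5:**
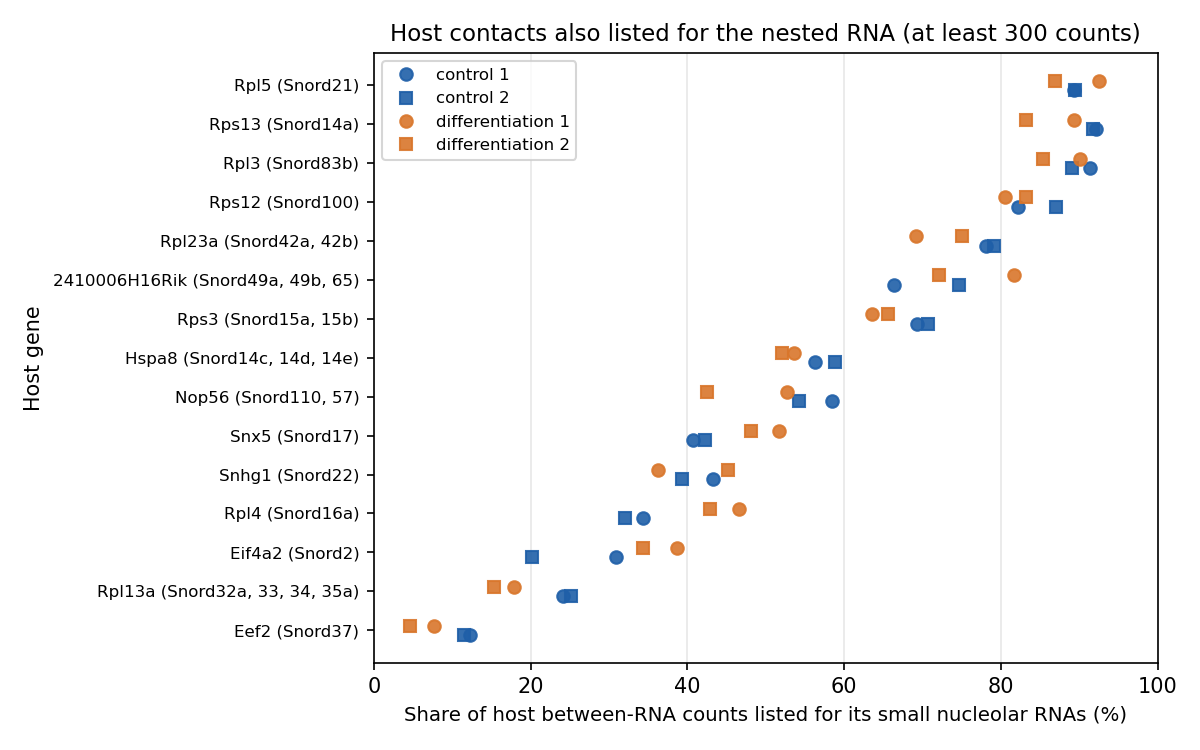
Share (%) of each host gene's counts with other RNAs that were also listed for the C/D box RNAs inside it, per library, for the hosts reported here whose nested RNAs had at least 300 counts. Rpl13a went from 24.1% and 25.2% in the controls to 17.8% and 15.4%, and Rpl5 lay between 86.9% and 92.5% in the 4 libraries.

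The genes whose products act on C/D box RNAs were read from the same table as contacts of their own RNAs. Of 4 tested genes of the core particle, Fbl, which encodes fibrillarin, rose from 159.6 ± 12.2 to 354 ± 36.0 CPM (SD, n = 2; log2 change 1.15, SE 0.16, adjusted p = 0.00106), and 0 fell. Nop56 and Nop58, core proteins whose genes themselves hold C/D box RNAs, had -0.47 (adjusted p = 0.139) and -0.40 (adjusted p = 0.226). Of 7 tested assembly and transport genes 1 rose and 0 fell: Nolc1, a nucleolar and Cajal body phosphoprotein, from 10.49 ± 5.83 to 27.6 ± 0.135 CPM (1.37, adjusted p = 0.0489). Nolc1 is also the 1 riser of 11 tested genes of the nucleolus and RNA polymerase I, of which 0 fell.

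Of 23 tested genes of the small subunit processome, the assembly that U3 RNA joins, 1 rose and 0 fell. It was Mphosph10, from 4.58 ± 0.0674 to 18.2 ± 2.00 CPM (1.96, SE 0.45, adjusted p = 0.0159). All 6 tested genes of small RNA end processing and debranching (among them Xrn1, Xrn2 and Dbr1) were below 0, with a median of -0.62, and 0 passed. At an unadjusted p under 0.05 that list held 1 gene. A list of 19 tested noncoding genes, drawn up as hosts of small RNAs, had 8 that fell and 0 that rose. Of the 19, 6 held any of the 64 C/D box RNAs with coordinates in the gene table, and of these Gas5, Snhg1, Snhg6 and Zfas1 fell. The other 13 held none of those 64, and of these 13 genes Meg3, Mirg, Rian and Snhg15 fell. Hosts of Snord50a, Snord50b, Snord60 and Snord80 could not be looked up, so any of the 19 may hold them. Meg3, an imprinted noncoding RNA, went from 303 ± 12.2 to 94.8 ± 8.89 CPM (-1.68, SE 0.17, adjusted p = 1.17e-04). Zfas1, the host of Snord12, went from 99.97 ± 9.64 to 38.6 ± 2.68 CPM (-1.37, SE 0.21, adjusted p = 0.00166). Over all RNAs tested, the shares that fell and rose were those given above, 6.75% and 5.44%.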

How the data were processed

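RIC-seq counts of 2 control and 2 differentiation libraries were used. The deposited table holds 1 whole-number count of chimeric reads per RNA pair and library, with no normalization by the authors. The submitters' processing notes name STAR and the build GRCm38 with neither role nor version. The sources used here state no rule for chimeric reads, duplicates or overlapping genes, so RNAs with like sequence or shared positions may share reads. Every listed pair had at least 1 count in all 4 libraries, so pairs seen in some libraries were not analysed here. Total counts were 793129 to 1400011 per library, and intervals cover counting error only.

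Pairs and contact totals (the sum of an RNA's pairs) were tested over the whole table with the two-sided quasi-likelihood F test of edgeR 4.0.16 (R 4.3.3), with TMM scaling, filterByExpr (minimum count 5, minimum total 10) and Benjamini-Hochberg adjustment, at an adjusted p under 0.05. CPM were scaled separately for totals and pairs. In the order control 1, control 2, differentiation 1 and differentiation 2, the TMM factors were 0.949, 0.944, 1.02 and 1.09 for totals. For pairs they were 1.04, 1.06, 0.949 and 0.957. A pair enters 2 totals. The script was tested on simulated data. Shares were compared by exact permutation tests. Alternatives used RLE scaling, column totals, DESeq2 1.42.0, other filters, a replicate block, left-out libraries and left-out partners. 1 of the host genes is not reported by name here. The names, coordinates and sequences came from RefSeq tables of GRCm38.p6.

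The RNAs, lists and rules were chosen with earlier results of these data known. Text names the 12 RNAs of largest count with their main pairs, RNAs and pairs past the test (at most 15 each by adjusted p), the 6 main partners by count and by number of RNAs, the 3 hosts with most members, and up to 4 called genes per list. Others (such as Snord118, Snord16a, Snord47, Snord100 with Snord14e, Rpl5 and Snhg1) were chosen after their values were seen.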

Additional observations from a re-analysis of the deposited data

How the results depend on the processing

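The count of 11 falls among contact totals was 8 to 14 with RLE scaling, DESeq2, the default filter (minimum count 10, total 15) or none, the replicate block, between-RNA pairs alone, pairs with overlapping genes left out, and 1 of each set of identical pairs, and 15 at an adjusted p under 0.1. It was 5 with column totals, which moved the median of all RNAs to 0.16, and 5 without the Gm42418 and Gm26917 pairs (47 tested). It was 5 without Neat1 pairs and 4 without Neat1 and Malat1 pairs. Leaving out 1 library gave 0 to 18. Snord13 and Snord14c passed under every setting but left-out controls. The 24 falls among pairs became 14 to 24 with 1 library left out and 17 with DESeq2. Of pairs, 0 rose, but 2 did with the default filter, 4 at an adjusted p under 0.1 and 0 to 6 with 1 library left out. The replicate block gave 14 falls of totals, 30 falls of pairs and 3 rises of pairs. Deviations of libraries with the same number correlated at 0.14 over totals and 0.02 over pairs, and with 2 numbers this does not establish pairing. The median of -0.37 became -0.21 with column totals, -0.20 with between-RNA pairs alone, -0.30 without Neat1 pairs and -0.28 without Neat1 and Malat1 pairs, and ran from -0.43 to -0.39 with 1 library left out. The Gm42418 share difference of -0.32 percentage points turned to 0.53 without Snord50a and Snord50b, and ran from -0.85 to 0.20 with 1 library left out. Turned in sign were the totals of Snord104 (0.18) and Snord83b (0.0923) without Gm42418 and Gm26917 pairs, Snord32a with column totals (0.0624) and between-RNA pairs alone (0.0715), and Snord50b (-0.12 without differentiation replicate 2, to 0.36 without differentiation replicate 1). So were the pairs of Gm26917 with Snord32a (-0.23 to 0.0464 with 1 library left out) and of Gm42418 with Snord15b (-0.28 to 0.86). The cause was not tested. Leaving out Neat1, Malat1, identical pairs, Snord50a or Snord50b was chosen after seeing the data. With 2 libraries per group, and 1 left out, the lone library is assumed to vary like the other group.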
